A study of Mus musculus with 3 samples.

Results

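Cytosolic ribosomal proteins are the proteins of the ribosome that translates nuclear messenger RNA. Their genes were read on 3 Affymetrix Mouse Genome 430 2.0 arrays of iBATs, 1 array each for 0, 1 and 2 h of isoproterenol (ISO), all on day 8 of differentiation. iBATs are a line of brown preadipocytes from the stromal vascular cells of interscapular brown fat of newborn C57BL/6 mice, immortalized with SV40 large T antigen, selected with puromycin and differentiated with insulin and indomethacin, which all 3 cultures share. ISO, given at 1 μM, stimulates all β-adrenergic receptors, and the 0 h array, without ISO, is the control of both later times. Members were the genes whose symbol begins with Rpl or Rps and a digit, with Rplp0, Rplp2 and Rpsa, taken from probe sets that carry a single symbol; kinase genes, Rps19bp1 and pseudogene symbols were left out. Of 49 such genes on the array, 42 reached a signal of 100 on 1 or more arrays and were read, 22 of the large and 20 of the small subunit, among 6896 genes read in all.

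The ribosome of the cytosol has a large subunit, which joins amino acids, and a small subunit, which reads the message. Most of its proteins are made in equal numbers, and their messages are among the most abundant and most stable of a cell. These messages begin with a run of pyrimidines, the 5′ terminal oligopyrimidine tract (TOP), through which mTOR complex 1 and LARP1 set how much of them is translated. That control acts on translation and is not read by an array of total RNA. In brown fat, β-adrenergic signals act through cyclic AMP and protein kinase A on heat production, lipolysis and transcription.

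The 5′ starts of several members are shown because this tract is known of the family and the rule did not use it. Each is the sense strand from 30 bases before to 20 bases after the transcription start that RefSeq gives on GRCm38.p6, so its last bases belong to the first exon. Capitals mark runs of 8 or more C or T that overlap the interval from 10 bases before to 20 bases after the start. Rpl7a lies at chr2:26910777-26910826 (plus strand), Rpl35 at chr2:39005112-39005161 (minus), Rps18 at chr17:33955646-33955695 (minus), Rps6 at chr4:86857348-86857397 (minus), Rps26 at chr10:128626487-128626536 (minus), Rpl22l1 at chr3:28805478-28805527 (plus) and Rpl7l1 at chr17:46782637-46782686 (minus). Rpl7a and Rpl35 have the longest runs, Rps6 is the target of the S6 kinases, Rps26 and Rpl22l1 had the largest 1 h ratios among members with high signal, and Rpl7l1 has no such run.
Rpl7a: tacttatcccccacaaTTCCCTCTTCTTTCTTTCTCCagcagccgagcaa
Rpl35: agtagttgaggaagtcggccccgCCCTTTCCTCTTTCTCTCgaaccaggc
Rps18: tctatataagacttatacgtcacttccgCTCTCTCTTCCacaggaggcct
Rps6: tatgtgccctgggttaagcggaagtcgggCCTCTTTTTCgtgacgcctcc
Rps26: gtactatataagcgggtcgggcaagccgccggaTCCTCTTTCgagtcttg
Rpl22l1: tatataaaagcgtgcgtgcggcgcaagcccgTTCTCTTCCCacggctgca
Rpl7l1: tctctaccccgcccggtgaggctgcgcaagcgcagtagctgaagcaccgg

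Such a run was found in 19 of the 37 members for which a start region was given (51.4%), against 20% of 5694 genes read and 19.2% of 27025 genes in the RefSeq table. For this and the matches below, a gene with several RefSeq starts was counted if any of them had the match. In the whole window from 250 bases before to 50 bases after the start, searched on both strands, 18 of the 37 members (48.6%) held CCGGAAG, a core bound by ETS factors, against 23.4% of the genes read. The full cyclic AMP response element TGACGTCA was found in 1 member, Rps9 (2.7%), against 3.9% of the genes read. Its shorter form TGACG, which the full element contains, was found in 18 members (48.6%) and in 39.3% of the genes read. TATAAA was in 5 members (13.5%, against 8.69%) and AAGATGGC, a YY1 core, in 3 (8.11%, against 6.41%). These matches describe the letters of the windows and no binding was measured here.

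Each array had a mean signal of 100 after 2% was trimmed at each end, and the 3′ to 5′ ratio of Actb was 1.61, 1.61 and 1.60 at 0, 1 and 2 h. Of 13 adipocyte and brown adipocyte markers on the array, 11 reached 100, and Dio2 (at most 9.8) and Elovl3 (at most 41.6) did not. The summed signal of this list was 20485.7 to 23827.5. This sum includes genes that moved in opposite directions, such as Ucp1 (1485.7, 3673.2 and 4166.1) and Cox8b (791.9, 686.5 and 584.8). Prdm16 reached 100 at 0 h alone (107.5, 77.5 and 69.3). None of 5 macrophage and leukocyte, 4 endothelial and 4 muscle markers reached 100, with highest signals of 93.2, 9.3 and 13.7. Of 6 preadipocyte and fibroblast markers, 5 reached 100, and their summed signal was 5758.3 to 6396.3. In bulk RNA, fewer cells of a type and less RNA per cell cannot be told apart. There is 1 array per time point, so no value below has a replicate error or a p-value, and both comparisons use the same 0 h array.

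No ribosomal protein gene changed by 2^0.8-fold, the size at which a gene was called, at either time. At 1 h 0 of 42 members were higher and 0 lower, where 109 of all genes read (1.58%) were higher and 15 (0.218%) lower. At 2 h the members again had 0 calls, where 188 genes (2.73%) were higher and 56 (0.812%) lower. From 1 to 2 h, 46 genes (0.667%) were higher and 22 (0.319%) lower, none of them a member. These background shares are low, so a count of 0 among 42 members says little about the members, and their ratios are described below.

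**Figure D1:**
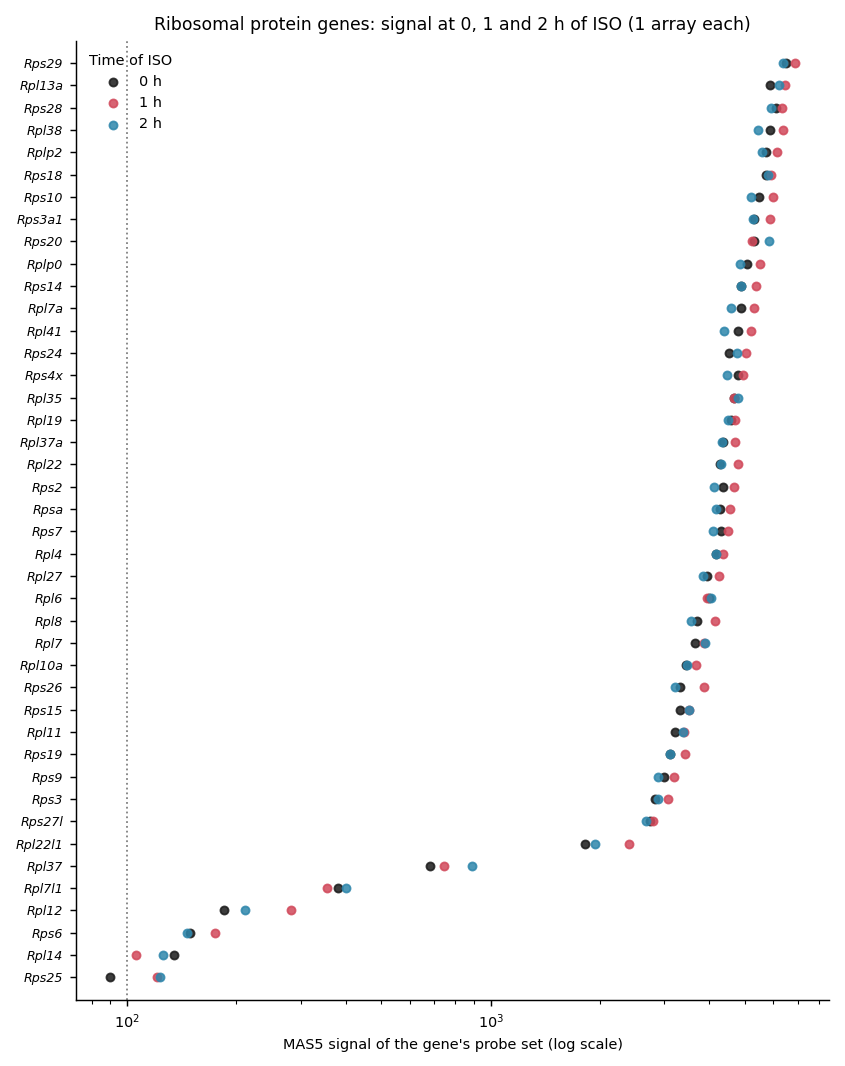
MAS5 signal of the 42 ribosomal protein genes read, on a logarithmic horizontal axis, with 1 point for each of the 0, 1 and 2 h arrays. The dotted line is the signal limit of 100, and 36 genes lie above a mean signal of 1000, where the 1 h point is the highest of the 3 for 32 of them.

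At 1 h the signal of 37 of the 42 members was above that at 0 h, where this held for 44.3% of all genes. The median log2 ratio of the members was 0.10, with quartiles of 0.06 and 0.14, while that of all genes was -0.02. At 2 h 24 members lay below 0 h, against 61.4% of all genes, and the median was -0.01 for the members and -0.07 for all genes. From 1 to 2 h 34 members lay below their 1 h signal, against 59.3% of all genes, and the median was -0.13 for the members and -0.04 for all. The signal was highest at 1 h in 34 members, against 26.3% of all genes. The robust spread (a scaled median absolute deviation) of the ratios at 1 h was 0.06 over the members and 0.16 over all genes. Among genes with a mean signal of 4000 or more it was 0.05 over 24 members and 0.08 over 55 other genes.

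A 1 h median of this size was also seen outside the ribosome. The bacterial and phage transcripts that are added to each sample as controls contain no mouse RNA. They were pooled without regard to the step, before labelling or at hybridization, at which each was added. Over 26 of their probe sets that reached 100, the ratios had a median of 0.09 at 1 h and -0.05 at 2 h on the log2 scale, and over the 7 with a mean signal of 1000 or more it was 0.10 and -0.06. Other mouse genes with strong signals had medians of the same sign. Over 314 with a mean signal of 2000 or more the medians were 0.05 and -0.02, over 125 with 3000 or more 0.07 and -0.04, and over 55 with 4000 or more 0.08 and -0.06. Of the last 55 genes, 83.6% were above 0 h at 1 h, against 91.7% of the 24 members at that level, whose medians were 0.10 and -0.03. From 1 to 2 h the median was -0.13 over these 55 genes and also over the 24 members. Of the 55 genes 87.3% lay below their 1 h signal at 2 h, against 91.7% of the 24 members.

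**Figure D2:**
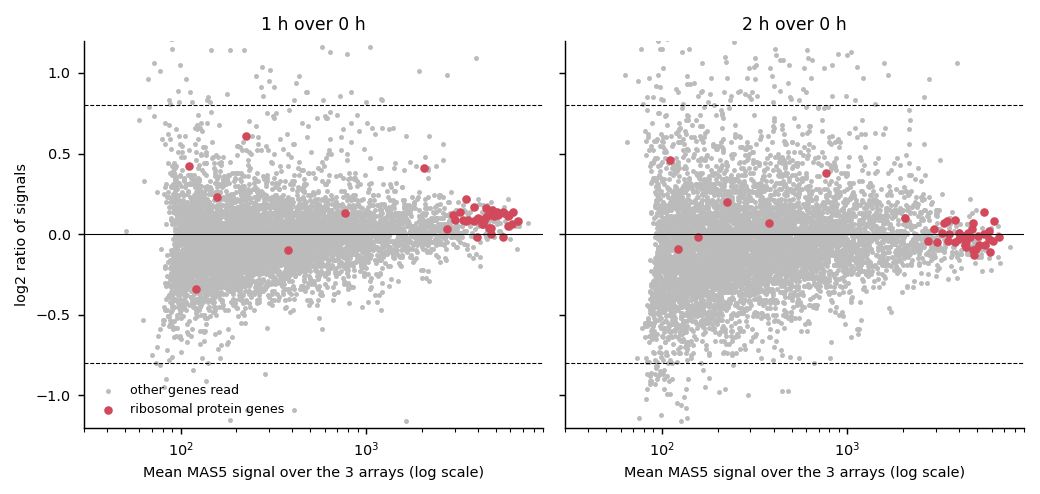
Log2 ratio to 0 h at 1 h (left) and 2 h (right) against the mean MAS5 signal over the 3 arrays on a logarithmic axis, for ribosomal protein genes (red) and the other genes read (grey); dashed lines mark 2^0.8-fold. At high signal the members lie in a narrow band just above 0 at 1 h and around 0 at 2 h; 68 genes at 1 h and 106 at 2 h fall outside the vertical range, none of them a member.

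The median of the members at 1 h was closer to 0 when the arrays were scaled by signal level. With quantile normalization the median of the members was 0.02 at 1 h and 0.01 at 2 h, and 27 of 42 were above 0 h at 1 h. With cyclic loess the medians were 0.03 and -0.07, and 29 of 42 were above 0 h at 1 h. Scaling each array to the same median left 0.11 and 0.00, and 37 of 42. The median of all genes moved by at most 0.03 under any of the 3. The part of the array scaling in the 1 h values of the members was not tested beyond these measurements.

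**Figure D3:**
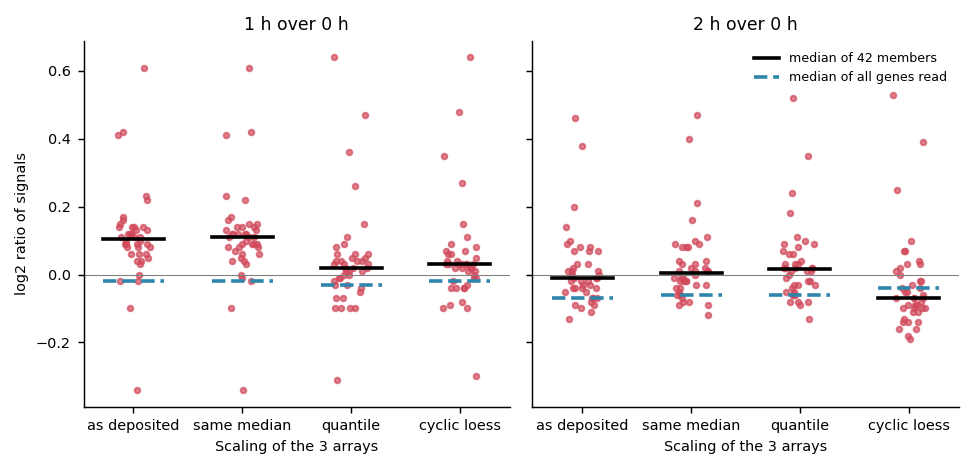
Log2 ratio to 0 h of each of the 42 ribosomal protein genes at 1 h (left) and 2 h (right) under the deposited scaling and 3 others; black bars are the medians of the members and dashed blue bars those of all genes read. At 1 h the median of the members falls from 0.10 as deposited to 0.02 with quantile normalization and 0.03 with cyclic loess.

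The large and small subunits did not separate. At 1 h 18 of 22 large subunit genes and 19 of 20 small subunit genes were above 0 h, with medians of 0.11 and 0.09. At 2 h the medians were -0.00 and -0.02. Within the 36 members with a mean signal of 1000 or more the 1 h ratios ran from -0.02 to 0.41, with all but 1 at 0.22 or below, and the 2 h ratios from -0.13 to 0.14.

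The stalk of the large subunit recruits the GTPase factors of translation. Rplp0, its base, had signals of 5085.9, 5526.2 and 4843.1 at 0, 1 and 2 h, and Rplp2, one of the acidic proteins it holds, had 5712.9, 6144.2 and 5585.3. Their log2 ratios were 0.12 and 0.11 at 1 h and -0.07 and -0.03 at 2 h, so the signal of both was highest at 1 h and lowest at 2 h. Rpl12, which binds beside them, had 184.3, 281.7 and 211.2, with ratios of 0.61 and 0.20. This was the highest 1 h ratio of all members, read from a probe set of low signal.

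Rpl11 binds 5S ribosomal RNA together with Rpl5, and the free particle holds Mdm2 in check. Its signals were 3210.0, 3412.6 and 3374.4, with log2 ratios of 0.09 and 0.07. From a list of 9 proteins in or around the exit tunnel, through which the new peptide leaves, 4 members were read. They ranged from -0.00 to 0.16 at 1 h and from -0.02 to 0.03 at 2 h. Rpl35, one of them and the bearer of a long pyrimidine run, had 4688.4, 4680.3 and 4790.1. This probe set was nearly level at 1 h, but the other 4 of Rpl35 were above 0 h, at 0.12 to 0.24.

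Rps6 is the small subunit protein that the S6 kinases phosphorylate. It had signals of 148.7, 174.2 and 146.6, with log2 ratios of 0.23 and -0.02, from a dim probe set. From a list of 8 proteins of the head and message channel of the small subunit, 6 members were read, and 5 were above 0 h at 1 h. Rps20, which is ubiquitinated on stalled ribosomes, was the exception at 5299.5, 5244.0 and 5849.5, with log2 ratios of -0.02 and 0.14, the latter the highest at 2 h among the members with high signal. Its other probe set (5219.4, 5392.9 and 5390.9) was at 0.05 at both times, so both values rest on 1 of 2 strong probe sets. Rps10, modified at the same kind of stall, had 5465.1, 5989.4 and 5202.7, lowest at 2 h, while its 5 probe sets lay between -0.16 and 0.01 at that time.

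Among the 10 members with the highest mean signal, 9 were above 0 h at 1 h. Rps29, a small zinc-binding protein near the message, had signals of 6499.6, 6884.8 and 6391.0. Rpl13a had 5863.5, 6444.2 and 6207.2, and Rps28, near the exit of the message channel, had 6081.9, 6341.5 and 5923.4. Rpl13a was the one of these 3 that stayed above 0 h at 2 h. Rps18, in the head of the small subunit, had 5719.0, 5913.4 and 5781.0, and Rps3a1 had 5299.3, 5855.6 and 5281.8. Rps20, Rps10, Rplp0 and Rplp2, given above, and Rpl38 complete the 10. Rpl38, a small protein of the large subunit whose loss in mice alters the axial skeleton, had 5856.0, 6363.0 and 5444.9.

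The 5 lowest 2 h ratios belonged to members above 0 h at 1 h, except Rpl14 (-0.34 and -0.09). Rpl41, the shortest ribosomal protein, had 4807.6, 5208.8 and 4396.9, with log2 ratios of 0.12 and -0.13. Rpl38 had 0.12 and -0.11, Rps4x, the X-linked form of a small subunit protein, had 4794.9, 4942.8 and 4471.0 (0.04 and -0.10), and Rpl7a had 4887.4, 5291.4 and 4590.5 (0.11 and -0.09). These 4 had strong signals, and their 2 h signals were also the lowest of the 3 arrays.

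Rps26, which lines the exit of the message channel, had signals of 3316.2, 3860.7 and 3226.1, with log2 ratios of 0.22 at 1 h and -0.04 at 2 h. Rpl6, a large subunit protein, had 3997.0, 3934.8 and 4034.3, ratios of -0.02 and 0.01. Of these, Rps26 had the second highest 1 h ratio among members with high signal, and Rpl6 had nearly the same signal on all 3 arrays.

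Of the genes on the array, 6 are paralogs of other members, and 3 were read. Rpl22l1, a near copy of Rpl22 that can take its place, had signals of 1815.3, 2404.6 and 1943.5, log2 ratios of 0.41 and 0.10. Rpl22 itself had 4284.4, 4780.4 and 4307.3, ratios of 0.16 and 0.01, and its 3 probe sets lay between 0.14 and 0.30 at 1 h. Rpl22l1 thus stood apart from the other members with a mean signal of 1000 or more at 1 h, where the next was Rps26 at 0.22, and it was read from 1 probe set. Rps27l, a paralog of Rps27 that p53 induces, had 2741.2, 2791.6 and 2673.6, ratios of 0.03 and -0.04. Rpl7l1, a paralog of Rpl7, had 381.0, 355.3 and 399.0, ratios of -0.10 and 0.07, and its other kept probe set was at 0.07 and 0.02.

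The members furthest from the rest were mostly read from dim probe sets. The 6 with a mean signal below 1000 were Rpl12, Rps6 and Rpl7l1, given above, and Rpl14, Rpl37 and Rps25. Rpl14 had 134.2, 105.7 and 125.7, the lowest 1 h log2 ratio at -0.34. Rpl37 had 680.6, 743.3 and 888.6, with 0.13 at 1 h and the second highest 2 h ratio, 0.38. Rps25, which some viral messages need to start translation, had 89.9, 120.5 and 123.3, ratios of 0.42 and 0.46, and was the member just inside the signal limit. Over these 6 the 1 h ratios ran from -0.34 to 0.61, a range wider than that of the 36 members with strong signals.

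The 7 genes not read were Rpl27a, Rpl39, Rps27, Rps16, Rpl39l, Rpl3l and Rps4l. Just outside the limit were Rpl27a (63.6, 67.6 and 79.8), Rpl39 (32.7, 29.4 and 69.1) and Rps27 (60.8, 65.3 and 65.7). Rps16 and the paralogs Rpl39l, Rpl3l and Rps4l were at most at 9.2. Whether the single-symbol probe sets of these 7 genes read their messages was not tested, so a low signal here need not mean low expression. The array holds 110 further probe sets that carry a ribosomal protein symbol beside others, often pseudogenes, and these name no gene here. Of them 91 reached 100, with median log2 ratios of 0.10 at 1 h and -0.01 at 2 h, and 78 were above 0 h at 1 h. None was past 2^0.8-fold from 0 h at 1 or 2 h, and 1 was higher by that size from 1 to 2 h (1.00). Rpl5, Rps27a and Rplp1 were not analysed here. Of the 42 members, 16 were read from probe sets with the suffix _s or _x, which marks possible sharing of sequence with other transcripts, so their values may include near-identical copies. A further 17 carry _a, which marks several transcripts of the same gene. With all suffixed probe sets left out, 13 members had medians of 0.10 and -0.03, and 9 were above 0 h at 1 h.

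Of 18 members with 2 or more kept probe sets, 13 had all of them above 0 h at 1 h. At 2 h the probe sets of a gene were all on the same side of 0 h in 8 of the 18. The probe sets of Rpl41 differed most at 1 h. Its strong probe sets had 1 h log2 ratios of 0.12 and 0.17, while a dim one went from 182.1 to 113.1 and 114.1 (-0.69 and -0.67) and another from 173.7 to 142.9 and 149.6 (-0.28 and -0.22). At 2 h a dim Rps24 probe set (435.6, 428.4 and 328.6) was at -0.41 while the others of that gene lay between 0.07 and 0.19. A weaker Rpl7 probe set (1934.3, 2502.5 and 2779.0) was at 0.37 and 0.52, above the rest of its gene. Whether these probe sets read the same transcripts was not tested.

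**Figure D4:**
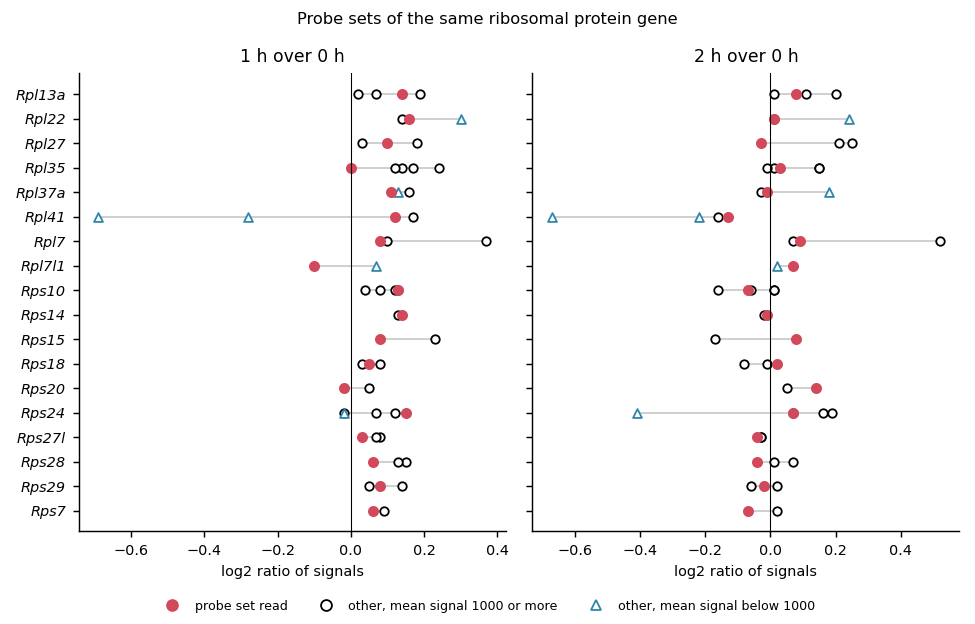
Log2 ratio to 0 h at 1 h (left) and 2 h (right) of every kept probe set of the 18 members with 2 or more, with the probe set read in red, other strong ones as open circles and those with a mean signal below 1000 as triangles. At 1 h both triangles of Rpl41 lie to the left of its strong probe sets, at 2 h 1 of them lies far from these (-0.67) and the other near them (-0.22), and 15 of the 18 genes span at most 0.29.

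Genes that act with the ribosomal proteins were read from 4 lists. The other TOP messages encode translation factors and close companions. In brackets after the signals stand the log2 ratios at 1 and 2 h. Of 19 on the array 19 were read and 0 were called, and their median log2 ratios were 0.08 at 1 h and 0.02 at 2 h, near those of the members. With quantile normalization they were 0.01 and -0.02 and with cyclic loess 0.02 and -0.02, so the sign at 2 h turned. Eef1a1, which brings transfer RNA to the ribosome, had 5672.4, 6123.2 and 5309.2 (0.11 and -0.10). Fau, whose product includes a small subunit protein, had 4467.9, 4881.9 and 4249.9 (0.13 and -0.07). Naca, a chaperone of new peptides, had the highest 1 h ratio at 0.16 with Nop53, a factor of large subunit assembly, which reached 0.28 at 2 h. Tpt1 had the lowest 2 h ratio at -0.23, and Eef1d and Eif3l were lowest at 1 h at -0.06.

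The factors that build ribosomes showed a wider spread than the members, near that of all genes read. The robust spread at 1 h was 0.15 over this list, 0.06 over the members and 0.16 over all genes. Of 45 on the array 41 were read, with medians of 0.12 and 0.09 against -0.02 and -0.07 over all genes, and 29 were above 0 h at 1 h. Over the median of each gene's kept probe sets the list stood at 0.06 and 0.07. With quantile normalization its medians were 0.11 and 0.09, and with cyclic loess 0.12 and 0.10. The gene called at both times was Rrp1b, a nucleolar protein of ribosomal RNA processing, with signals of 90.1, 162.0 and 171.8 (0.85 and 0.93). With signals below 100 set to 100 it was at 0.70 and 0.78, and with 32 added to each signal at 0.67 and 0.74, under the threshold. Rrs1, which brings the 5S particle to the growing large subunit, had 788.6, 1139.7 and 1010.6 (0.53 and 0.36), and Lyar, a nucleolar protein, had 287.4, 416.4 and 367.9 (0.53 and 0.36). Both were above every ribosomal protein gene of high signal at 1 h, but their own signals were lower than those of these genes. Of the dim members, Rpl12 stood above both at 0.61. The lowest were Rrp15 at -0.26 at 1 h and Dkc1, the pseudouridine synthase, at -0.50 at 2 h.

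The subunits and factors of RNA polymerase I and III, which transcribe ribosomal and transfer RNA, had medians below 0 at both times. Of 23 on the array 15 were read and 0 were called, with medians of -0.05 and -0.07, beside -0.02 and -0.07 over all genes. The 2 h median was -0.19 over 11 genes with a signal limit of 200 and over 23 with none. Gtf3a, the factor of 5S RNA genes, was lowest with 431.2, 340.6 and 324.6 (-0.34 and -0.41). Ubtf, a factor of polymerase I, was highest at 1 h with 200.7, 216.9 and 211.3 (0.11 and 0.07), and Taf1d was highest at 2 h at 0.27. The probe sets of 18S ribosomal RNA itself were above 0 h at 1 h by 0.18, 0.51 and 0.49 from its 5′ end to its 3′ end, and at 2 h by 0.12, 0.07 and 0.39. These probe sets differed from each other, and whether they follow the amount of ribosomal RNA was not tested.

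Of 22 genes of mTOR, MYC and S6 kinase signalling, 19 were read, with medians of -0.01 at both times. Ddit4, which restrains mTOR complex 1, was the gene called at both times, with signals of 193.1, 1581.8 and 1485.0 (3.03 and 2.94). Tsc2, a brake of the same complex, was lowest at 1 h at -0.37, and Eef2k, the kinase of elongation factor 2, was lowest at 2 h with 124.6, 97.3 and 73.5 (-0.36 and -0.76). Myc, the activator of ribosome genes, had 242.2, 213.0 and 328.7 (-0.19 and 0.44). No other gene of this list passed the threshold at either time.

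**Figure D5:**
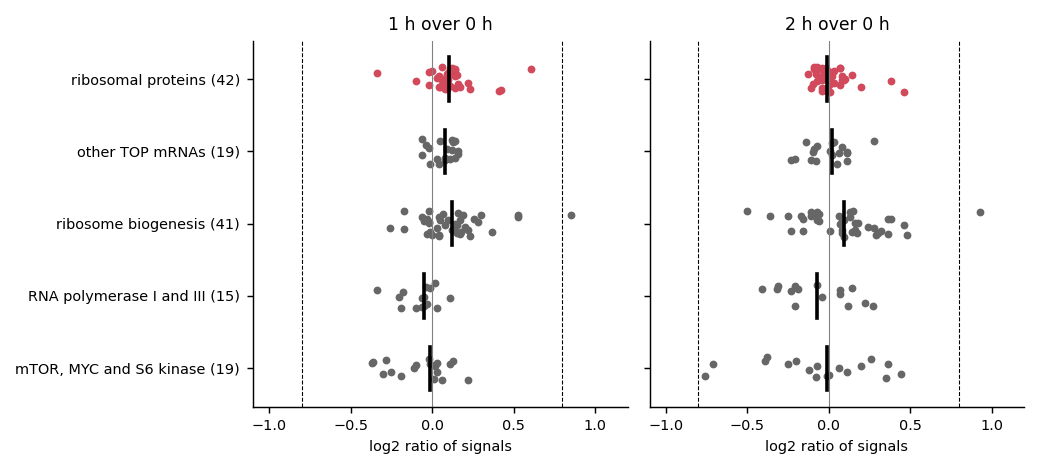
Log2 ratio to 0 h at 1 h (left) and 2 h (right) of the genes read in 5 lists, with the number read in brackets and the median as a black bar; dashed lines mark 2^0.8-fold, and Ddit4 (3.03 and 2.94) lies beyond the right edge. The medians of the ribosomal proteins lie at 0.10 and -0.01, and ribosome biogenesis genes reach furthest to the right among those drawn.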

How the data were processed

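The authors hybridized labelled RNA of iBATs to 3 Affymetrix Mouse Genome 430 2.0 arrays and summarised them as MAS5 signals, a tool that the submitters list for their processing. The deposited values are 1 linear intensity per probe set and array. Absent and low values, which the methods exclude, are still in them. The number of arrays, 1 per time point, limits the precision, and p-values were not calculated.

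The public array annotation gave 1 symbol for 34958 of 45101 probe sets, several for 932 and none here for 9211. All 49 members matched RefSeq genes by identifier. A gene was read from its brightest probe set (by the mean over the arrays) if this reached 100 on 1 or more arrays. Log2 ratios were taken with numpy 2.4.6 and pandas 2.3.3 (Python 3.11.15) and checked on simulated data, and a call needed 2^0.8-fold. Signals of 0 were set to 0.1. Starts came from RefSeq promoters (GRCm38.p6).

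The members, the lists and the rule for naming genes were chosen with earlier results of these data known. The rule took members past the threshold, the 5 highest and 5 lowest at each time, the 10 with the highest signal, the stalk proteins, Rpl11, Rps6, paralogs, those beside the signal limit, and the called, highest and lowest genes of each list. A few further genes and probe sets were chosen after their values were seen. Alternatives were other filters, low-signal treatments, probe set choices, a 2-fold threshold and other scalings, of which cyclic loess used limma 3.58.1 (R 4.3.3). Figures were drawn with matplotlib 3.10.9.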

Additional observations from a re-analysis of the deposited data

How the results depend on the processing

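With no filter on low signals, which adds the 7 members below 100 and so 49 in all, 3 members were lower at 1 h, and at 2 h 1 was higher and 1 lower by 2^0.8-fold; every other alternative left the counts of members called at 0. Quantile normalization moved the median log2 ratio of the members to 0.02 at 1 h, to -0.02 from 1 to 2 h and, with the sign turned, to 0.01 at 2 h, and cyclic loess moved it to 0.03 at 1 h. The cause was not tested. The other filters, treatments of low signals and choices of probe set, the same median on each array, and, chosen after seeing the data, leaving out members with a mean signal below 1000 or paralogs, moved these medians by less than the spread of the members. No paired analysis was possible because there is 1 array per time point, and no replicate could be left out. Members with signals near 100 are limited by signal over background, and near-identical family copies by shared sequence.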
